A study of Homo sapiens with 4 samples.

Results

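The nuclear pore complex and the receptors that carry cargo through it were followed in RNA recovered with ALKBH5, an enzyme that removes the methyl group of N6-methyladenosine from RNA. The genes were chosen by name: all numbered nucleoporins, importins, exportins and transportins, together with RANBP2, TPR, POM121, NDC1, SEH1L, SEC13, RAE1, AAAS, CSE1L and RAN. This gave 56 of the 26830 genes in the expression table, of which 30 encode nucleoporins and 26 encode transport receptors or RAN. RNA immunoprecipitation with sequencing (RIP-seq) had been carried out in NOMO-1, an established line of acute myeloid leukaemia, and there were 2 Flag-IP libraries (RNA pulled down with an anti-Flag antibody) and 2 input libraries (RNA not pulled down), numbered 1 and 3 in each group. All 4 libraries came from cells that overexpressed Flag-tagged ALKBH5 from a lentivirus, after puromycin selection, sorting for GFP and UV crosslinking, so the inputs carry the transgene too. A pull-down from cells without the tag was not analysed here, so the RNA that binds the antibody or beads on its own was not measured. The labels do not state whether libraries 1 and 3 derive from different cultures. The p-values therefore reflect spread among 4 libraries only, and that spread may be technical.

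Nuclear pores are ring-shaped channels in the nuclear envelope. A scaffold of outer and inner rings, anchored by membrane proteins, holds a central channel filled by nucleoporins with phenylalanine-glycine (FG) repeats, with filaments on the cytoplasmic face and a basket on the nuclear side. Importins bind cargo in the cytoplasm and release it when they meet Ran-GTP in the nucleus, while exportins bind their cargo together with Ran-GTP and release it in the cytoplasm. Several of these genes matter in myeloid leukaemia: NUP98 and NUP214 are partners in fusion oncogenes, and the exportin XPO1 is a drug target.

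Levels are in TPM, transcript abundances per length that sum to the same total in each library. Read depth is unknown, so no counting error can be given. Structural RNAs such as ribosomal RNA and 7SL took 92.5% and 93.6% of the TPM in the Flag-IP libraries, against 96.8% and 96.3% in the inputs. The median tested gene had a ratio of 2.38 between mean Flag-IP and mean input TPM. Differences are given relative to this typical gene: each library was divided by its median ratio over the tested genes, and a log2 difference is the mean log2(scaled TPM + 1) of Flag-IP minus that of input. The added 1 understates the change of genes near 0 TPM. Of 14 myeloid marker genes 9 had a mean of at least 1 TPM, with sums of 146 and 135 TPM in Flag-IP and 78.6 and 92.6 TPM in input. Of 23 markers of T cells, B cells, erythroid, epithelial, fibroblast and endothelial cells, PECAM1 alone reached that level.

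The 56 genes together had 356 and 269 TPM in Flag-IP 1 and 3, against 98.8 and 116 TPM in input 1 and 3. As a share of all RNA outside the structural RNAs this was 0.475% and 0.419% in Flag-IP and 0.309% and 0.318% in input, with the Flag-IP shares above the input shares. Of the 56 genes, 53 had a mean of at least 1 TPM and were tested. The other 3 were KPNA5 (0.80 and 0.35 TPM in Flag-IP, 0.10 and 0.20 in input), KPNA7 (0.04 and 0.06 in Flag-IP, listed at 0 in both inputs) and NUP210L (0.02 in Flag-IP 1, listed at 0 elsewhere), importins and a nucleoporin that were barely detected. Levels spanned a wide range, from NUP210 at 29.05 and 24.4 TPM in Flag-IP and 5.67 and 7.27 TPM in input down to genes such as NUP35, KPNA4 and XPO4 at under 1 TPM in both inputs. The mean for the filter was taken over all 4 libraries. AAAS, IPO11, NUP214, NUP35, NUP37, NUP85 and XPO4, all below 1 TPM in both inputs, passed it only through their Flag-IP values. So did IPO8, KPNA1, KPNA4, KPNA6, NDC1, NUP155, NUP50, NUP58, NUP88 and NUPL2, also below 1 TPM in both inputs. Relative to the typical gene, all genes of the first list were called higher and none of the second was called.

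**Figure D1:**
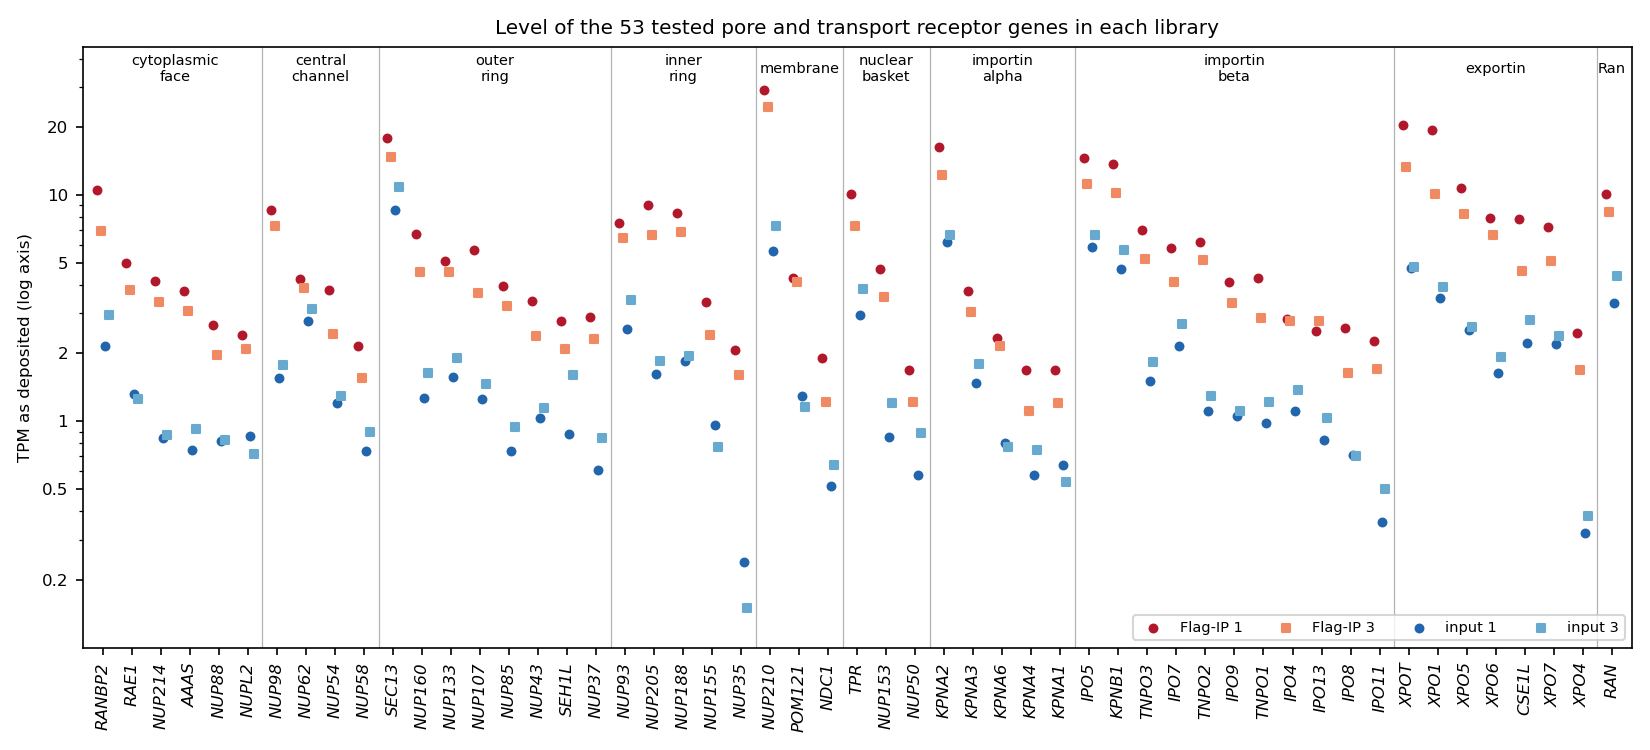
Deposited TPM (log axis) of the 53 tested genes in each of the 4 libraries, grouped by role and ordered by mean level, with 1 point per library. On this scale the Flag-IP points of every gene lie above its input points, and the points of NUP62, SEH1L and SEC13 lie close together beside the wide gaps of NUP35 and XPO4.

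Relative to the typical gene, 19 of the 53 genes were higher in Flag-IP and 2 were lower at a limma adjusted p below 0.05. That is 35.8% and 3.77% of the genes, against 22.3% of all 6487 tested genes called higher and 18.6% called lower. Their median log2 difference was 0.16, where that of all tested genes was -0.01. The scaled values of the 2 groups did not overlap for 29 genes with Flag-IP above input and for 6 with Flag-IP below, and over all tested genes this held for 37.0% and 37.1%. On the deposited scale, where nearly everything moves up, 52 of the 53 were called higher and none lower, against 86.6% and 0.74% of all genes. Leaving out 1 library at a time gave a median log2 difference of 0.17 to 0.25 over those still tested. Each such fit has fewer libraries from which to estimate spread, so a call lost there need not mean a smaller difference. With structural RNAs left out before scaling 27 were higher and 1 lower (2206 and 711 of all genes), and with quantile scaling 16 and 1 (1243 and 1219 of all genes). Of the 19 genes, AAAS, NUP35, NUP37, NUP85 and TNPO2 kept the call once the trend of the differences with coding length was removed, and the rest lost it. All of these but TNPO2 had passed the filter only through their Flag-IP values.

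**Figure D2:**
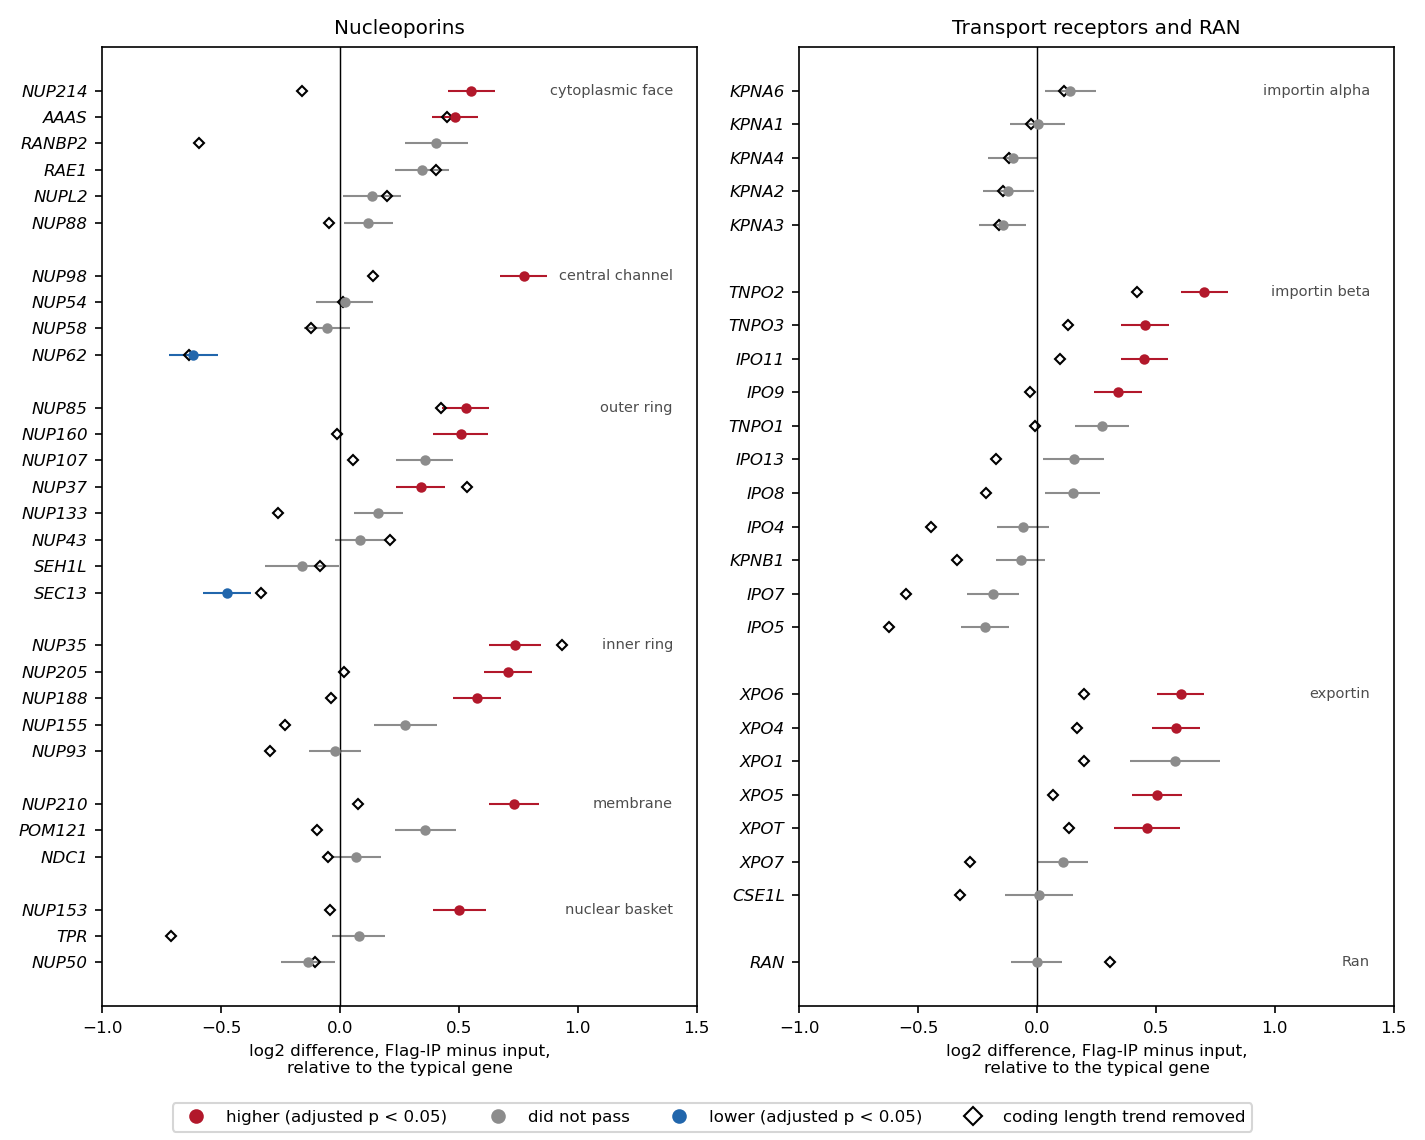
Log2 difference between Flag-IP and input relative to the typical gene, with its standard error, for nucleoporins (left) and transport receptors with RAN (right), coloured by limma's call. Open diamonds give the same difference once its trend with coding length is removed. NUP98, NUP35, NUP210, NUP205 and TNPO2 lie at 0.70 to 0.77, and NUP62 lies lowest at -0.62.

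Counts by role rest on few genes each and were not tested as sets, with 22.3% of all tested genes called higher and 18.6% lower. The inner ring held 3 of its 5 genes higher and none lower. NUP205 and NUP188, the large solenoid proteins that form its arches, were both higher without overlap. NUP205 had 9.02 and 6.65 TPM in Flag-IP and 1.62 and 1.84 TPM in input (0.71 ± 0.10, log2 ± SE, adjusted p = 0.00408). NUP188 had 8.30 and 6.83 TPM in Flag-IP and 1.84 and 1.94 TPM in input (0.58 ± 0.10, adjusted p = 0.00756). Both calls ended once the trend with coding length was removed (0.01 and -0.04). NUP35, the small subunit that ties the ring to the membrane, had 2.07 and 1.60 TPM in Flag-IP against 0.24 and 0.15 TPM in input. Its ratio of 9.41 was the largest of the 53 genes and its log2 difference was 0.74 ± 0.11 (adjusted p = 0.0043), although its input level is close to the bottom of the scale. NUP35 passed the filter only through its Flag-IP values. NUP93, the linker that holds the ring together, lay close to the typical gene, with 7.54 and 6.48 TPM in Flag-IP, 2.55 and 3.44 TPM in input and a difference of -0.02 ± 0.11 (adjusted p = 0.892). NUP155 was at 0.27 ± 0.13 and did not pass.

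In the outer ring, the Y-shaped scaffold around both faces of the pore, 3 of 8 genes were higher and 1 was lower. NUP85 was at 3.95 and 3.24 TPM in Flag-IP and 0.74 and 0.94 TPM in input, higher by 0.53 ± 0.10 (adjusted p = 0.00908), NUP160 by 0.51 ± 0.12 (adjusted p = 0.0175) and NUP37 by 0.34 ± 0.10 (adjusted p = 0.0421). The NUP37 call was lost in 8 of 14 alternatives, among them the removal of each of the 4 libraries in turn. That of NUP160 was lost without Flag-IP 1, without input 1, with no filter and with either length trend removed. SEC13, which also builds the coat of vesicles that leave the endoplasmic reticulum, had 17.8 and 14.7 TPM in Flag-IP against 8.57 and 10.8 TPM in input. It was the most abundant outer-ring transcript in every library, and it was lower than the typical gene, at -0.48 ± 0.10 (adjusted p = 0.0139). The SEC13 call was lost on the deposited scale (0.69, called higher), with quantile scaling, with structural RNAs left out, with a filter at 5 TPM, and without Flag-IP 1 or input 3. The other 4 genes of the ring did not pass: NUP107 (0.36), NUP133 (0.16), NUP43 (0.08) and SEH1L (-0.16), whose input values of 0.88 and 1.60 TPM were far apart.

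The membrane protein NUP210, the pore glycoprotein gp210, was the most abundant of all 56 transcripts in both Flag-IP libraries. It was higher by 0.73 ± 0.10 (adjusted p = 0.00395), a call that ended with the coding length trend removed (0.08). POM121, another membrane anchor, had 4.30 and 4.13 TPM in Flag-IP against 1.29 and 1.16 TPM in input (0.36 ± 0.13, adjusted p = 0.071), and NDC1 had 1.90 and 1.22 TPM against 0.52 and 0.64 TPM (0.07 ± 0.10). Neither passed.

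The 4 channel genes split widely. NUP98, whose product is cleaved into the FG nucleoporin NUP98 and the outer-ring protein NUP96, was at 8.55 and 7.32 TPM in Flag-IP and 1.55 and 1.78 TPM in input, and its difference of 0.77 ± 0.10 (adjusted p = 0.00281) was the largest of the 53 genes. It was 0.14, and no longer called, with the coding length trend removed. NUP62, which lines the channel together with NUP54 and NUP58, had 4.27 and 3.86 TPM in Flag-IP against 2.76 and 3.13 TPM in input. Its ratio of 1.38 was the smallest of the 53 genes, and NUP62 was lower than the typical gene, at -0.62 ± 0.10 (adjusted p = 0.00632). Its channel partners NUP54 (0.02 ± 0.12) and NUP58 (-0.06 ± 0.10) lay close to the typical gene. As deposited, NUP62 was the only tested gene of the 53 that was not called higher (0.36, adjusted p = 0.099).

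On the cytoplasmic face 2 of 6 genes were higher. NUP214, an FG nucleoporin, had 4.16 and 3.36 TPM in Flag-IP against 0.84 and 0.87 TPM in input (0.55 ± 0.10, adjusted p = 0.00833), and AAAS, which encodes aladin, the protein lost in triple A syndrome, had 3.78 and 3.07 TPM against 0.75 and 0.92 TPM (0.48 ± 0.10, adjusted p = 0.0114). RANBP2, the giant protein of the cytoplasmic filaments, was at 10.5 and 6.92 TPM in Flag-IP and 2.16 and 2.95 TPM in input (0.40 ± 0.13, adjusted p = 0.0533), and the mRNA export factor RAE1 at 4.98 and 3.81 TPM and at 1.32 and 1.26 TPM (0.34 ± 0.11, adjusted p = 0.0535). Both stood just outside the threshold. NUP88, the partner of NUP214, had 2.67 and 1.96 TPM in Flag-IP against 0.82 and 0.83 TPM in input (0.12 ± 0.10), and NUPL2 was at 0.13 ± 0.12. Of the basket genes NUP153 was higher (4.72 and 3.53 TPM in Flag-IP, 0.85 and 1.20 TPM in input, 0.50 ± 0.11, adjusted p = 0.0157). Its call was lost without Flag-IP 1, Flag-IP 3 or input 1, with no filter and with either length trend removed. TPR, which forms the basket filaments, and NUP50 did not pass (0.08 ± 0.11 and -0.14 ± 0.11), with 10.1 and 7.32 TPM in Flag-IP against 2.96 and 3.82 TPM in input for TPR and 1.69 and 1.22 TPM against 0.58 and 0.89 TPM for NUP50.

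The importin alpha genes, whose products read the classical nuclear localisation signal, contained no call relative to the typical gene. KPNA4 was called lower with the trend of the longest transcript removed (-0.48). KPNA2, by far the most abundant, had 16.2 and 12.2 TPM in Flag-IP against 6.21 and 6.63 TPM in input (-0.12 ± 0.11, adjusted p = 0.397). KPNA3 had 3.76 and 3.03 TPM in Flag-IP against 1.47 and 1.79 TPM in input (-0.145 ± 0.10), and the closely related KPNA4 had 1.69 and 1.11 TPM against 0.58 and 0.75 TPM (-0.10 ± 0.10). KPNA1 had 1.68 and 1.21 TPM in Flag-IP against 0.64 and 0.54 TPM in input (0.0027 ± 0.11). Its relative KPNA6 had 2.34 and 2.14 TPM against 0.80 and 0.77 TPM (0.14 ± 0.11), and KPNA5, of the same subfamily, was too low to test. KPNA2 and KPNA3 had both scaled Flag-IP values below both inputs, KPNA6 had them above, and in KPNA1 and KPNA4 the groups overlapped. A p above the threshold does not show that they equal the typical gene: with standard errors of about 0.1, differences of this size cannot be resolved.

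The other genes of the classical import cycle were also near the typical gene. KPNB1, the carrier that importin alpha hands its cargo to, had 13.7 and 10.2 TPM in Flag-IP against 4.72 and 5.73 TPM in input (-0.07 ± 0.10, adjusted p = 0.62). CSE1L, the exportin that returns importin alpha to the cytoplasm, had 7.79 and 4.61 TPM against 2.21 and 2.79 TPM (0.01 ± 0.14), and RAN, the GTPase that gives transport its direction, 10.1 and 8.38 TPM against 3.34 and 4.39 TPM (-0.0018 ± 0.11). On the deposited scale KPNB1, KPNA2, CSE1L and RAN were all called higher, with differences of 1.05, 1.02, 1.01 and 1.08 where the median gene had 0.84.

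Among the 11 importin beta relatives that import cargo, 4 were higher and none lower. TNPO2, a transportin for hnRNP proteins, had 6.21 and 5.16 TPM in Flag-IP against 1.11 and 1.29 TPM in input (0.70 ± 0.10, adjusted p = 0.00358). Its close relative TNPO1 had 4.29 and 2.85 TPM against 0.98 and 1.22 TPM (0.27 ± 0.11, adjusted p = 0.101); the difference between these genes was not tested. TNPO3, the import receptor of SR splicing factors, was higher by 0.45 ± 0.10 (adjusted p = 0.0156), IPO11 by 0.45 ± 0.10 (adjusted p = 0.0148) and IPO9 by 0.34 ± 0.10 (adjusted p = 0.0394). The IPO9 call was lost in 10 of the 14 alternatives run for it, among them the removal of each library in turn. That of TNPO3 was lost without Flag-IP 1, input 1 or input 3. That of IPO11 was lost without input 1, with quantile scaling and with no filter, and IPO11 was not tested without Flag-IP 1. Both calls were lost with the coding length trend removed. IPO5, which imports ribosomal proteins and was the most abundant of the group, had 14.5 and 11.1 TPM in Flag-IP against 5.91 and 6.63 TPM in input (-0.22 ± 0.10, adjusted p = 0.126). IPO7, another importer of ribosomal proteins, had 5.83 and 4.11 TPM against 2.15 and 2.69 TPM (-0.18 ± 0.11). Its relative IPO8 had 2.57 and 1.63 TPM against 0.71 and 0.70 TPM (0.15 ± 0.12). IPO4 and IPO13 were at -0.06 ± 0.11 and 0.15 ± 0.13, and none of these 5 passed.

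Of the 7 exportins 4 were higher and none lower, where 22.3% and 18.6% of all tested genes were called. The exportins had a median difference of 0.51, and all 4 calls ended with the coding length trend removed. That of XPOT was also lost with no filter and without Flag-IP 1, input 1 or input 3, and that of XPO5 without input 3. XPO4 fell below the filter without Flag-IP 1, so its call was not checked against that loss. XPO6, the exporter of actin and profilin, had 7.94 and 6.68 TPM in Flag-IP against 1.64 and 1.92 TPM in input (0.60 ± 0.10, adjusted p = 0.0059). XPO4, an exporter of the translation factor eIF5A, had 2.46 and 1.68 TPM against 0.32 and 0.38 TPM (0.59 ± 0.10, adjusted p = 0.00691). XPO5, which exports microRNA precursors, had 10.75 and 8.26 TPM against 2.52 and 2.62 TPM (0.51 ± 0.11, adjusted p = 0.0127), and XPOT, which exports tRNA and was the most abundant exportin, 20.4 and 13.2 TPM against 4.77 and 4.80 TPM (0.46 ± 0.14, adjusted p = 0.0415). XPO1, the general exporter of proteins with leucine-rich signals, had 19.3 TPM in Flag-IP 1 and 10.1 TPM in Flag-IP 3, against 3.49 and 3.90 TPM in input. The groups did not overlap and its ratio was 3.99, but with the widest standard error of the exportins it did not pass (0.58 ± 0.19, adjusted p = 0.0532). It passed without Flag-IP 3 (0.88, adjusted p = 0.0121), and without Flag-IP 1 it was at 0.33 (adjusted p = 0.104). It also passed as deposited, with structural RNAs left out and with a filter at 5 TPM. XPO7 was at 0.11 ± 0.11. After scaling, Flag-IP 1 lay above Flag-IP 3 for 6 of the 7 exportins and for 67.9% of the 53 genes, where it did so for 46.4% of all tested genes.

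Length of the coding sequence moved with these differences. Across the 53 genes the log2 difference and the coding length had a Spearman's rho of 0.49, and across 5974 tested protein-coding genes of the same 4 libraries it was 0.59. The pore and transport genes are long, with a median coding length of 2871 bases against 1466 bases for all, and a median of 23 exons against 11. The 19 genes called higher had a median coding length of 3375 bases, against 2426 bases for the other 34. When the trend with coding length was removed from all genes, 6 of the 53 were called higher and 8 lower, against 17.3% and 17.6% of all genes. The median of the 53 was then -0.04. With the trend of the longest annotated transcript removed instead, 12 were higher and 10 lower, against 19.8% and 22.1%. The 10 lower were IPO5, IPO7, KPNA4, KPNB1, NUP50, NUP58, NUP62, NUP93, SEC13 and TPR. The part of coding length in these differences was not tested further.

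With the coding length trend removed, the large pore genes lost their calls. NUP98 was at 0.14 (adjusted p = 0.356), NUP210 at 0.08, NUP205 at 0.01 and NUP188 at -0.04, and all 4 exportins called higher lost their calls too, at 0.07 to 0.20. RANBP2 and TPR, with coding sequences of 9672 and 7089 bases, were then called lower, at -0.59 (adjusted p = 0.00573) and -0.71 (adjusted p = 0.00129). IPO5 (-0.62), IPO7 (-0.55), IPO4 (-0.45) and KPNB1 (-0.34) were called lower as well, beside NUP62 (-0.63, adjusted p = 0.00216) and SEC13 (-0.33, adjusted p = 0.0283). The 6 that were higher for their length were NUP35 (0.93, adjusted p = 2.28e-04), NUP37 (0.53, adjusted p = 0.00523), AAAS (0.45, adjusted p = 0.0117), NUP85 (0.42, adjusted p = 0.0162), TNPO2 (0.42, adjusted p = 0.0156) and RAE1 (0.40, adjusted p = 0.0261), with coding sequences of 978 to 2691 bases. With the trend of the longest transcript removed instead, NUP98 (0.47), NUP210 (0.42), NUP205 (0.43), NUP188 (0.33) and XPO6 (0.47) kept their calls. XPO4, XPO5 and XPOT lost theirs there too. In that setting RANBP2 (-0.10), IPO4 (-0.11) and RAE1 (0.31) were not called, and TPR (-0.34) was called lower.

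**Figure D3:**
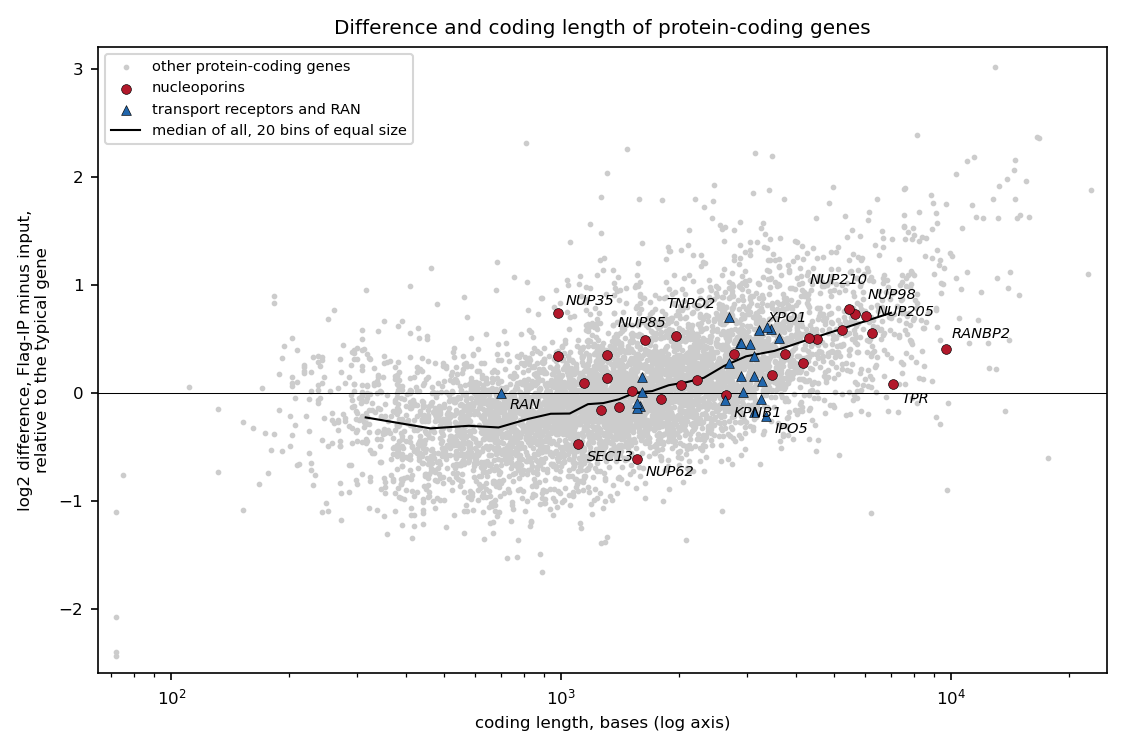
Log2 difference relative to the typical gene against coding length (log axis) for 5974 tested protein-coding genes (grey), nucleoporins (red circles) and transport receptors with RAN (blue triangles). The black line is the median of all these genes in 20 bins of equal size. NUP98, NUP205 and NUP210 lie near the line, NUP35 and TNPO2 above it, and TPR, RANBP2, NUP62 and IPO5 below it.

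ALKBH5 acts on N6-methyladenosine, which is commonly found in the sequence GGACT of mRNA (GGACU in RNA). The windows below belong to the 6 genes called higher with the coding length trend removed and to the pair called lower with and without that correction. RANBP2, TPR, IPO5, IPO7, IPO4 and KPNB1, called lower after that correction but not before it, are not shown. Each is the first GGACT of the coding sequence, on the mRNA strand 5′ to 3′ in a window of 30 bases inside a single exon, with GGACT in capitals.
AAAS: aggcccagatgtGGACTtgtgagaggtggc
NUP35: atttctagcccaGGACTtggatcaacacct
NUP37: gccgttggatctGGACTgtcctggcatcga
NUP85: gagtacgcctcgGGACTgtttgctcatccc
RAE1: tgactcttctcaGGACTcacgtgtgtcctt
TNPO2: atGGACTggcagccagacgagcagggcctg
NUP62: tctgccaccactGGACTctccctctgtacc
SEC13: cgacgcccagatGGACTactatggcacccg
In TNPO2 the motif overlaps the start codon. In GRCh38 with GENCODE 29 the AAAS window is chr12:53308983-53309012 (minus strand, exon 10 of 16) and that of NUP35 is chr2:183130498-183130527 (plus strand, exon 3 of 9). The NUP37 window is chr12:102074417-102074446 (minus strand, exon 10 of 10), that of NUP85 chr17:75231607-75231636 (plus strand, exon 13 of 19) and that of RAE1 chr20:57374882-57374911 (plus strand, exon 11 of 11). The TNPO2 window is chr19:12720948-12720977 (minus strand, exon 3 of 26), that of NUP62 chr19:49909085-49909114 (minus strand, exon 2 of 2) and that of SEC13 chr3:10315405-10315434 (minus strand, exon 4 of 10). A match is a run of letters, and methylation or binding at these positions was not measured.

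Matches of this kind were common. GGACT was searched on the mRNA strand only, and at least 1 match stood in the coding sequence of 94.3% of the 53 genes and of 76.3% of the tested protein-coding genes. Per kilobase the median was 0.931 for the 53 and 0.955 for all. The genes called higher had a median of 0.889 per kilobase and the others 0.945, and across the 53 genes the density and the log2 difference had a Spearman's rho of -0.01 (0.06 across all). NUP93 had the densest coding sequence at 2.65 per kilobase and a difference of -0.02, while XPOT at 0.347 and NUP214 at 0.319 per kilobase were both called higher. KPNA2, NDC1 and SEH1L had no coding match.

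Reads of some genes can be shared with near copies. RANBP2 has a family of RGPD copies, of which RGPD5 alone could be tested. It had 2.61 and 1.45 TPM in Flag-IP and 0.21 and 0.23 TPM in input, higher by 0.76, while RGPD1, RGPD2, RGPD3, RGPD4, RGPD6 and RGPD8 lay between 0 and 0.5 TPM in all libraries. POM121C, a near copy of POM121, had 6.81 and 5.70 TPM in Flag-IP against 1.71 and 1.85 TPM in input, higher by 0.42. With the coding length trend removed neither was called (RGPD5 0.14, POM121C -0.03). How reads were divided between these copies is not known, so the levels of RANBP2 and POM121 are uncertain. Exons also overlap those of neighbouring genes. For IPO11 this concerns 17.0% of its exon bases, shared with LRRC70, which was at or near 0 TPM in all libraries, and 5.68%, shared on the same strand with KIF2A, which was above IPO11 in every library (4.33 and 2.56 TPM in Flag-IP, 1.39 and 1.37 TPM in input). For NUP62 it concerns 10.4%, shared with ATF5 on the other strand, and 5.58%, shared with IL4I1 on the same strand, and both neighbours were below 1 TPM in all libraries. POM121 shares 18.8% with NSUN5P2 on the other strand, which had 0.80 and 1.71 TPM in Flag-IP and was listed at 0 in both inputs. NUP88 shares 8.84% with RABEP1 and 9.82% with RPAIN, both on the other strand and both above NUP88 in every library. Smaller overlaps with expressed neighbours on the other strand concern NUP43 (PCMT1) and XPO5 (POLR1C). Whether counting used strand is not given in the sources used here.

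Genes that work with the pore but were outside the selection gave calls in both directions. Of 40 such genes 33 were tested, and against the typical gene 8 were higher and 3 lower, with a median of 0.01, where 22.3% and 18.6% of all tested genes were called. With the coding length trend removed 5 were higher and 2 lower. SNUPN, NXF1, PCID2, SUN1 and TMPO kept their calls there, and AHCTF1 (-0.07), MCM3AP (0.25), SYNE3 (0.06), POM121C (-0.03), NXT1 (-0.21) and RANBP1 (-0.16) did not. In mRNA export NXF1, the main export receptor, had 4.04 and 3.38 TPM in Flag-IP against 0.58 and 0.28 TPM in input (1.02, called higher), while NXT1, the small protein that pairs with it, had 2.36 and 2.16 TPM against 1.67 and 1.65 TPM (-0.54, called lower). MCM3AP and PCID2 of the TREX-2 complex, which couples transcription to export at the pore, were higher by 0.93 and 0.63, and PCID2 had 7.83 and 5.99 TPM in Flag-IP against 1.41 and 1.86 TPM in input. In pore assembly AHCTF1, the chromatin-bound protein ELYS that seeds new pores, was higher by 0.70, with 8.25 and 5.60 TPM in Flag-IP against 1.30 and 1.72 TPM in input. Of the Ran cycle and its adaptors, SNUPN, the import adaptor of spliceosomal snRNPs, had 8.95 and 7.32 TPM in Flag-IP against 1.44 and 2.27 TPM in input and was higher by 0.71. RANBP1, a cofactor of Ran, had 11.2 and 9.88 TPM against 6.08 and 6.10 TPM and was lower, at -0.42. In the envelope and lamina SUN1, which links the lamina to the cytoskeleton, had 5.01 and 3.88 TPM in Flag-IP against 0.79 and 0.64 TPM in input (0.86, called higher), and SYNE3 was higher by 0.39. TMPO, a lamina-associated protein, had 4.29 and 3.11 TPM against 2.31 and 2.88 TPM and was lower, at -0.57. LMNA, the most abundant of that group, had 13.8 and 12.3 TPM against 5.87 and 7.14 TPM (-0.23) and did not pass. ALKBH5 itself had 10.1 and 8.91 TPM in Flag-IP against 4.62 and 4.91 TPM in input, -0.24 relative to the typical gene, and did not pass.

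**Figure D4:**
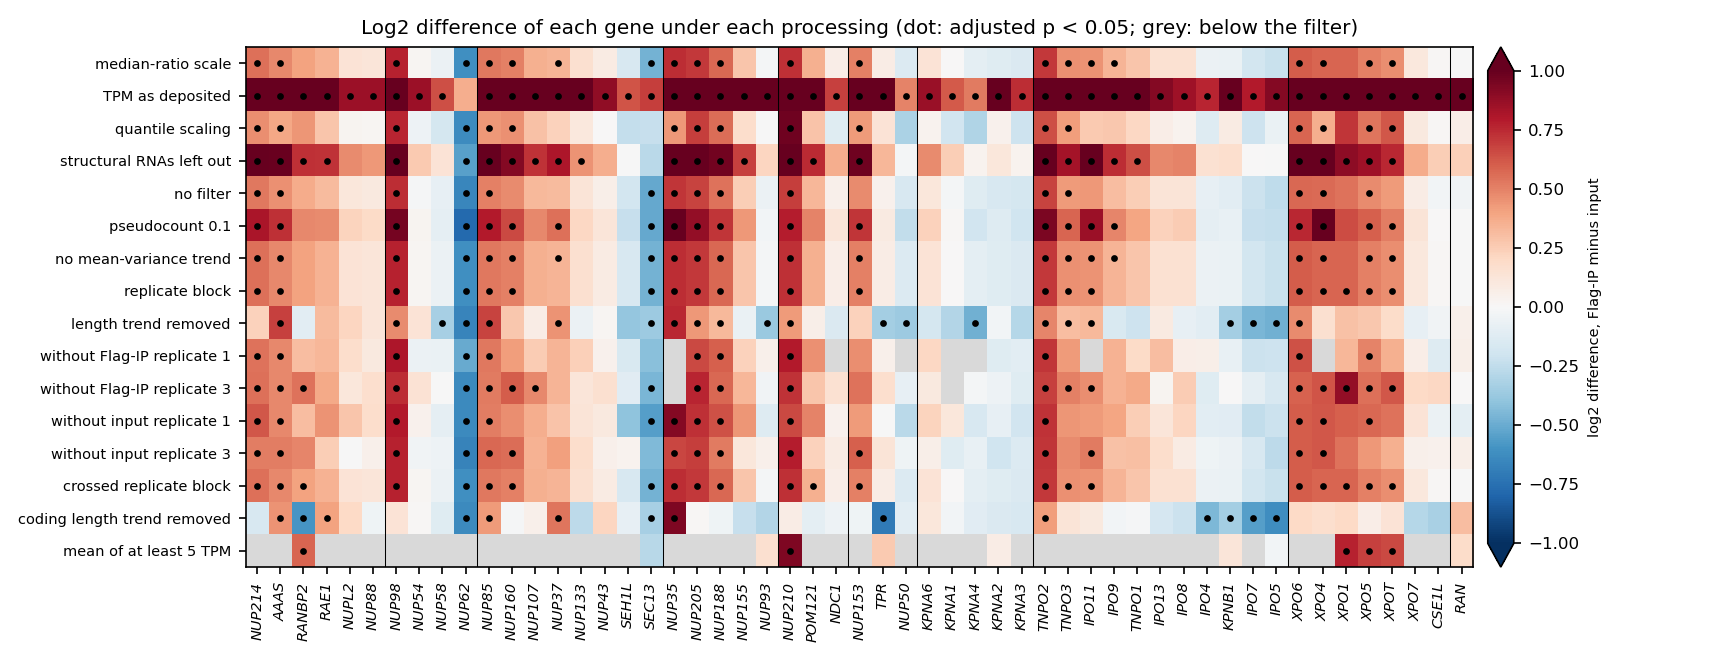
Log2 difference of the 53 genes (columns, by role) under the median-ratio scale and the 15 alternative settings (rows), from -1 in blue to 1 in red, with stronger values shown at the end colour. A dot marks an adjusted p below 0.05, and grey a gene below the filter of that setting. AAAS, NUP35, NUP85 and TNPO2 keep a red cell with a dot in every setting in which they were tested. Of these, AAAS, NUP35 and NUP85 passed the filter of 1 TPM only through their Flag-IP values. NUP35 was not tested where either Flag-IP library was left out. NUP98, NUP205, NUP210, NUP188 and XPO6 lack a dot where the coding length trend is removed.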

How the data were processed

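RNA from 2 Flag-IP and 2 input libraries of NOMO-1 cells had been sequenced. The authors deposited 1 table of TPM per gene symbol for the 4 libraries; STAR, RSEM and GRCh38 are named in the submitters' processing notes, without versions. TPM keep no read depth, so no count test and no counting interval could be made. Columns were assigned to libraries by their names. The 6487 genes that averaged 1 TPM or more were scaled by the median of ratios, taken as log2(TPM + 1) and fitted with limma 3.58.1 in R 4.3.3 (moderated test with a mean-variance trend, two-sided, Benjamini-Hochberg adjustment over all 6487 genes, threshold 0.05). The filter took the mean of all 4 libraries. A gene below 1 TPM in both inputs therefore entered only through its Flag-IP values. An exact permutation test of 2 against 2 libraries cannot go below p = 0.333. In data simulated from these libraries (6199 genes in the fit) the fit recovered 98% of genes set to a log2 difference of 1 and 97.6% of those set to -1, and called 0.15% of unchanged genes. No difference smaller than 1 was set, whereas those of the 53 genes lay between -0.62 and 0.77, so recovery at such sizes is not known. In the simulation 6010 of the 6199 genes were unchanged, so it does not give the error rate where many genes differ, as here. Coding lengths, exons, GGACT matches and coordinates came from GENCODE 29 on GRCh38, to which all 56 genes matched by symbol; the longest coding transcript was used. Length trends were removed with loess (span 0.5). The members, gene lists and tests were chosen with earlier results of these data known. Any of the 56 genes could be named. By rule, values in every library are given for the most abundant gene and those with the highest and lowest difference of each role, for 4 groups of paralogues, and likewise for each group of pathway genes, for ALKBH5 and for sequence copies. A pathway gene that this rule selects is not reported here. For the remaining genes whose values are given, the choice was made after seeing them. The alternatives, including the coding length trend, which was added after seeing the data, are given in the closing section.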

Additional observations from a re-analysis of the deposited data

How the results depend on the processing

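The scale decided most counts. With TPM as deposited 5616 genes were higher and 48 lower, among them 52 and 0 of the pore and transport genes, whose median was 1.08. With structural RNAs left out 2206 genes were higher and 711 lower, 1 of the 53 was lower and their median was 0.50, where all genes had 0.24. Quantile scaling left 1 of the 53 lower. With a mean of at least 5 TPM 392 genes were higher and 355 lower, and of the 12 pore and transport genes that remained 5 were higher and 0 lower, with a median of 0.22. The median was 0.13 with no filter and 0.25 with a pseudocount of 0.1. With the trend of the longest transcript removed 12 were higher and 10 lower, with a median of 0.0469, and with the coding length trend removed, which was chosen after seeing the data, 6 were higher and 8 lower, with a median of -0.0393. Leaving out 1 library at a time gave 897 to 1225 genes higher and 567 to 916 lower, 10 to 18 of the pore and transport genes higher and 1 to 2 lower, and a median of 0.17 to 0.25; the lone library of a group was assumed to vary like the other group. AAAS, NUP35, NUP85 and TNPO2 kept their call under every alternative in which they were tested. None of them was tested with a mean of at least 5 TPM. AAAS, NUP35 and NUP85 had passed the filter only through their Flag-IP values, which can favour a higher call. Apart from the setting with no filter, the alternatives in which they were tested used the filter of 1 TPM on the same libraries. NUP35 also fell below the filter when either Flag-IP library was left out, so its call was not checked against that loss. Neither NUP62 nor SEC13 kept its call throughout. NUP62 lost it only as deposited, where both were above input. SEC13 also lost its call with quantile scaling, structural RNAs left out and a filter at 5 TPM, and when Flag-IP 1 or input 3 was left out.

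Deviations of same-numbered libraries from their group means had a weak negative correlation (r = -0.187 across 6487 genes). The labels do not state whether the numbers mark pairs, and a correlation across genes cannot decide it. The main fit used no pairing. With the replicate number as a block 18 of the 53 were higher and 2 lower (1286 and 1055 of all 6487 genes). With the crossed pairing, added after seeing the data, 20 were higher and 2 lower (1409 and 1275 of all 6487 genes). The replicate block ended the calls of IPO9 and NUP37, added that of XPO1 (adjusted p = 0.0439) and changed no other call among the 53.

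Single genes changed sign as follows, and the cause was not tested beyond the construction of each setting. With no filter, CSE1L was at -0.0253, KPNA1 -0.0174 and NUP54 -0.0087. With the longest transcript's trend removed, CSE1L was at -0.0339, IPO8 -0.0803, IPO9 -0.16, KPNA1 -0.29, KPNA6 -0.17, NDC1 -0.15, NUP133 -0.0619, NUP155 -0.0683, RAN 0.0469, RANBP2 -0.10, TNPO1 -0.21, TPR -0.34 and XPO7 -0.0812. With the coding length trend removed, CSE1L was at -0.32, IPO13 -0.17, IPO8 -0.22, IPO9 -0.0276, KPNA1 -0.0251, NDC1 -0.0494, NUP133 -0.26, NUP153 -0.0413, NUP155 -0.23, NUP160 -0.0135, NUP188 -0.0393, NUP214 -0.16, NUP88 -0.0468, POM121 -0.0982, RAN 0.31, RANBP2 -0.59, TNPO1 -0.0105, TPR -0.71 and XPO7 -0.28. As deposited, IPO4 was at 0.76, IPO5 0.92, IPO7 0.79, KPNA2 1.02, KPNA3 0.74, KPNA4 0.52, KPNB1 1.05, NUP50 0.50, NUP58 0.64, NUP62 0.36, NUP93 1.01, RAN 1.08, SEC13 0.69 and SEH1L 0.63. With structural RNAs left out, IPO4 was at 0.15, IPO7 0.0053, KPNA2 0.11, KPNA3 0.0363, KPNA4 0.033, KPNB1 0.17, NUP58 0.14, NUP93 0.22 and RAN 0.24. With quantile scaling, KPNA1 was at -0.20, KPNA2 0.0421, KPNB1 0.0791, NDC1 -0.12, NUP54 -0.0516 and RAN 0.0699. With at least 5 TPM, KPNA2 was at 0.0764, KPNB1 0.12, NUP93 0.16 and RAN 0.18. Leaving out 1 library gave -0.13 to 0.20 for CSE1L, -0.12 to 0.058 for IPO4, -0.12 to 0.11 for KPNA1, -0.11 to 0.0066 for KPNB1, -0.0593 to 0.15 for NUP54, -0.13 to 0.052 for NUP93, -0.0075 to 0.27 for NUPL2, -0.0952 to 0.0573 for RAN, -0.40 to 0.0365 for SEH1L and -0.0013 to 0.17 for TPR. Read depth is unknown, so a difference near the bottom of the scale, as for NUP35 in input, has no counting error.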
